A study of Mus musculus with 703 samples.

Results

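The expression of 10 imprinted genes was followed through mouse gastrocnemius, a calf muscle: the growth factor gene Igf2, the signalling adaptor gene Grb10, the cell cycle inhibitor gene Cdkn1c, the zinc finger genes Peg3 and Plagl1, the hydrolase gene Mest, the transmembrane protein gene Dlk1, and the long non-coding RNA genes H19, Meg3 and Rian. They were chosen by symbol alone, and each symbol matched a single row, so that 10 of the 19088 genes in the table were members. All 10 passed the filter on low counts. Each sample was the gastrocnemius of a different mouse, with 1 library of polyadenylated RNA per animal. Each mouse was an F1 animal of a CC-RIX strain. Such a strain is bred by crossing 1 inbred line of the Collaborative Cross to another, and every line carries its own mosaic of the same founder genomes. There were 20 such crosses, made from 19 lines. The animals ate a diet of 10% or 44% fat, both with fiber, from 6 weeks of age, and a subset received metformin at 5 mg/mL in drinking water from 7 months.

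Without metformin there were 236 females and 233 males, of which 234 ate 10% fat and 235 ate 44% fat, with the sexes near balance on each diet. With metformin, there were 57 females and 59 males on 10% fat, and 59 females and 59 males on 44% fat. Each cross had 10 to 26 untreated animals, with a median of 24, and 7 to 13 animals on metformin, with a median of 12. The labels give the genotype of every animal as Outbred. The study had cohorts of 6 and 12 months, and the labels do not give an animal's age. Since metformin began at 7 months, its effect and that of age cannot be told apart here. A cross is written with the line named first before the x. By convention that line is the dam, which the labels do not state, and no cross was made in both directions (0 reciprocal pairs). In bulk tissue, fewer cells of a type and less RNA per cell cannot be told apart either.

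An imprinted gene is expressed mainly or wholly from the copy inherited from a given parent, because its alleles received different DNA methylation in the egg and the sperm. Many of these genes act on growth. As a rule, genes expressed from the paternal copy (among the members Igf2, Dlk1, Peg3, Plagl1 and Mest) include promoters of growth, and genes expressed from the maternal copy (H19, Meg3, Rian, Cdkn1c and Grb10) include restrainers of it, with exceptions on both sides. Imprinted genes lie in clusters. H19 and Igf2 are neighbours that share enhancers, and Dlk1, Meg3 and Rian lie in a single cluster in which the RNAs come from the maternal chromosome and Dlk1 from the paternal. Most members are high in fetal muscle and fall after birth. In adult muscle H19 stays abundant, and several members are expressed in muscle stem cells or in regenerating fibres.

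All 10 genes had the same position in the deposited annotation and in the GENCODE M21 annotation of GRCm38. On chromosome 7, H19 (ENSMUSG00000000031) spans 142575529 to 142578143, Igf2 (ENSMUSG00000048583) spans 142650766 to 142666816 and Cdkn1c (ENSMUSG00000037664) spans 143458339 to 143461050, all on the minus strand. Peg3 (ENSMUSG00000002265), at 6703892 to 6730431 on the minus strand, is at the other end of that chromosome. On chromosome 12, Dlk1 (ENSMUSG00000040856) spans 109452823 to 109463336, Meg3 (ENSMUSG00000021268) spans 109541001 to 109571726 and Rian (ENSMUSG00000097451) spans 109603940 to 109661716, all on the plus strand. Plagl1 (ENSMUSG00000019817) lies on chromosome 10 at 13060504 to 13131694, plus strand. Grb10 (ENSMUSG00000020176) lies on chromosome 11 at 11930508 to 12038683, minus strand. Mest (ENSMUSG00000051855) lies on chromosome 6 at 30723547 to 30748465, plus strand. Igf2, Cdkn1c, Meg3 and Mest overlap genes on the opposite strand, and the sources used here do not say whether counting used strand.

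Of the members, 5 also carry small RNAs, which libraries of polyadenylated RNA do not measure. Their bodies hold 15 mature microRNAs in RefSeq (GRCm38.p6), and no pair of these shares a seed (15 distinct seeds). A mature microRNA from each of the 5 genes, 2 from Rian, is given 5′ to 3′ to make plain what these host transcripts contain, with the seed (bases 2 to 8, the stretch that pairs with target RNAs) in capitals. They lie, in the order given, in H19, Igf2, Meg3, Rian (both miR-341 and miR-370) and Mest.
mmu-miR-675-5p: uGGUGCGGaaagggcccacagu
mmu-miR-483-3p: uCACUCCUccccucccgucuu
mmu-miR-770-5p: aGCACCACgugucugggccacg
mmu-miR-341-5p: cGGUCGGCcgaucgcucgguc
mmu-miR-370-3p: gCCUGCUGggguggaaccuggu
mmu-miR-335-5p: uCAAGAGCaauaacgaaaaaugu
Any change of H19 or Mest described below is therefore a change of the host transcript, and the levels of miR-675 and miR-335 were not measured.

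Imprints are kept through early development by proteins that bind methylated DNA, among them ZFP57, which recognises the hexamer TGCCGC when it is methylated. Promoters of 300 bases (250 before to 50 after a start site, RefSeq, GRCm38.p6) were searched for this hexamer on both strands. Of the 10 members, 8 had a promoter in the table used (H19 and Cdkn1c did not), and 5 of these held the hexamer in at least 1 promoter. Among all 32851 promoters, 11.6% held it and 1.53% held it more than once, and 13.1% of genes held it in at least 1 promoter. A promoter of Mest (the middle one of its entries by position) and that of Dlk1 are shown because the results below turn on these genes. Both are given 5′ to 3′ on the strand of its gene, with matches in capitals (GCGGCA is the same hexamer on the other strand). They lie at chr6:30737800-30738099 and chr12:109452573-109452872.
Mest: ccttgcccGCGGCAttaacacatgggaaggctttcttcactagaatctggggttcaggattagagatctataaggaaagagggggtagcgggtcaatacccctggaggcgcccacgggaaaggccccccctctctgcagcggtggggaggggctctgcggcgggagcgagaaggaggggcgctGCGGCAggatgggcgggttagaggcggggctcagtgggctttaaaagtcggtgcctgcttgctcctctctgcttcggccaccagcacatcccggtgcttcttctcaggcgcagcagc
Dlk1: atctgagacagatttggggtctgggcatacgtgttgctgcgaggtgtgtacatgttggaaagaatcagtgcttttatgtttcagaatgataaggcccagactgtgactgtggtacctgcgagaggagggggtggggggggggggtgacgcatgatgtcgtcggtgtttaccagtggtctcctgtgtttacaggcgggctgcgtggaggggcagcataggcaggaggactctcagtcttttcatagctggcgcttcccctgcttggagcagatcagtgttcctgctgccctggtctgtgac
The Mest promoter shown held 2 matches and 17 CpG dinucleotides, as did an entry that overlaps it, while the other Mest entry held 0 matches and 8. The Dlk1 promoter held 0 matches and 9 CpG, against a median of 7 CpG per promoter in the table. A match describes these letters and no binding was measured.

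The total per library ran from 27.4 M to 96.1 M counts, with a median of 47.9 M. Xist went against the sex label in 15 libraries, and the expression profile of 4 was closest to another strain, which made 19 mismatched libraries in all. The libraries also fall into a lower (544) and an upper (159) range of sequencing identifiers, which entered each fit across genes as a term, and the cross CC009/UncJ x CC013/GeniUncJ lies in the upper range alone. Summed markers of muscle fibres were between 53995 and 128035 CPM (a gene's counts scaled to a common library total) in every library, which goes with the labelled tissue, and summed hepatocyte markers had group medians of 1.17 to 3.36 CPM but reached 6372 CPM in a single library.

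A single library stood apart on the members themselves. It came from an untreated male on 10% fat of the cross CC051/TauUncJ x CC059/TauUncJ, and had the highest CPM of all libraries for 7 of the 10 members. Its Igf2 was 82.7 CPM, where the other 5 males of its cross and diet had 16.7 to 31.2, and its Mest was 35.8 CPM, where they had 3.10 to 3.98. It ranked second for Peg3 and Plagl1, and its H19 was 904 CPM against 146 to 382.5 in those males. Its summed markers of regenerating fibres (Myh3, Myh8, Myog and Chrng) were 137 CPM against 7.26 to 22.5 in those males, and its markers of fibro-adipogenic progenitors, the connective tissue cells of muscle, and of macrophages both ranked second among all libraries. The part of these cells in its values was not tested. Values that this library moved by much are given with and without it.

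The members covered a wide range of abundance in adult muscle. H19 was by far the highest, with a lowest, median and highest value of 79.5, 359 and 911 CPM over all untreated animals. Grb10 followed at 9.58, 35.5 and 68.4 CPM and Igf2 at 9.40, 18.3 and 82.7 CPM. Dlk1 was lowest, at 0, 0.611 and 2.51 CPM, a median of 30 counts per library. Dlk1 was listed at 0 in 4 libraries, all from males on 44% fat. Per kilobase of exon, the scale on which genes can be compared, median levels in untreated animals were 146 CPM for H19, 3.91 for Grb10, 3.84 for Cdkn1c, 3.20 for Igf2, 1.30 for Peg3, 0.544 for Meg3, 0.533 for Mest, 0.324 for Rian, 0.164 for Plagl1 and 0.108 for Dlk1. The quartiles of Grb10 (2.94 to 4.61), Cdkn1c (3.05 to 5.20) and Igf2 (2.72 to 4.001) overlapped, as did those of Meg3 (0.433 to 0.693) and Mest (0.402 to 0.758), so these neighbours in the order were not separated by their spread.

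**Figure D1:**
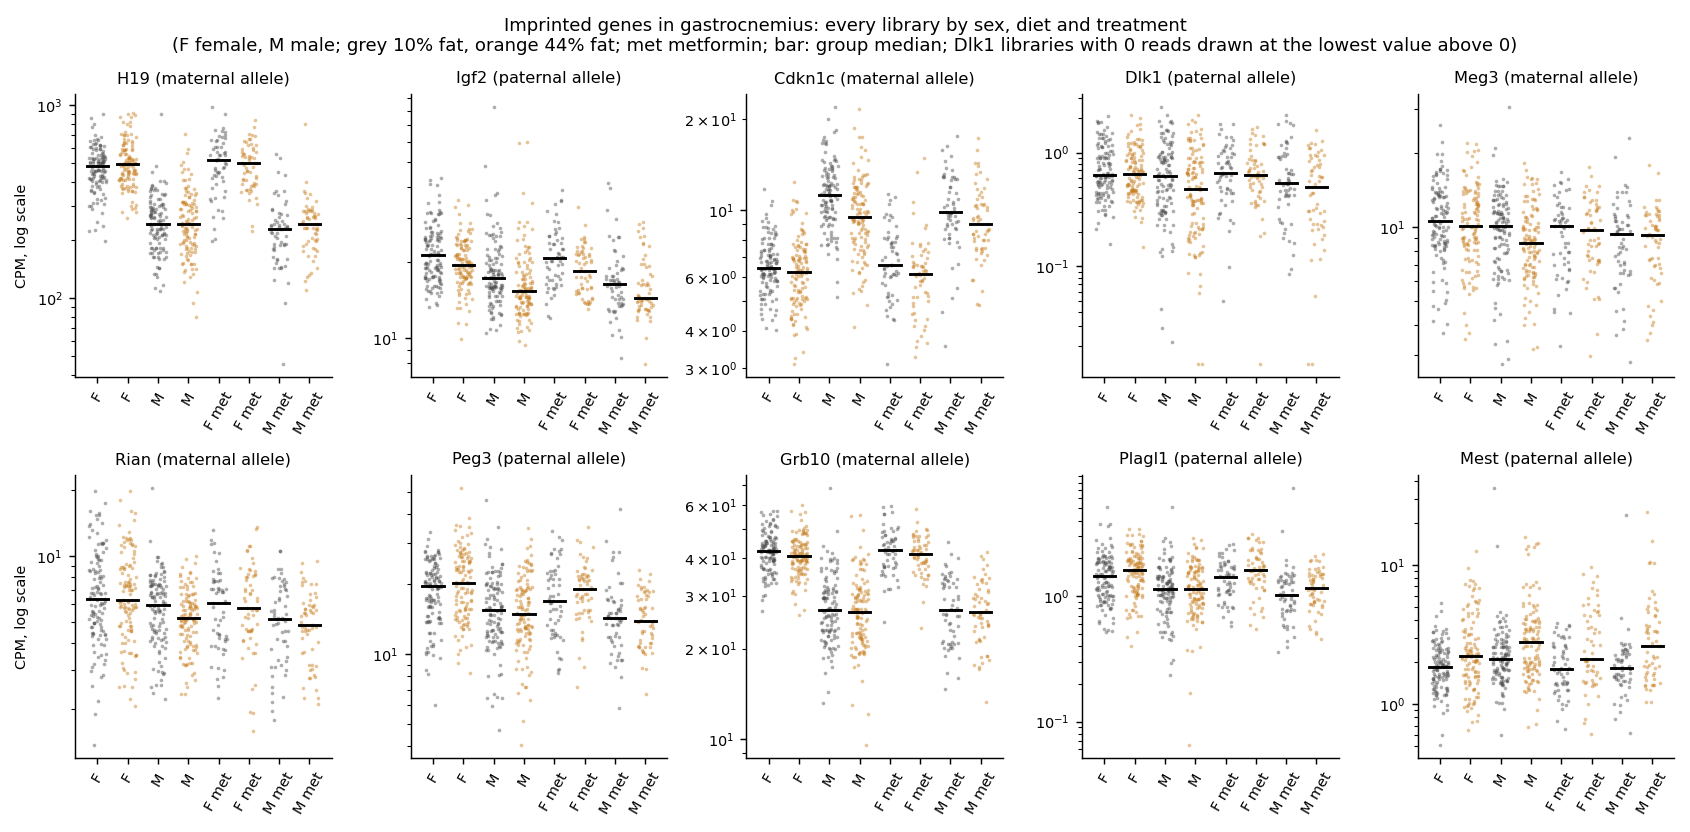
CPM (log scale) of each member in every library, in 8 groups by sex, diet (grey 10% fat, orange 44% fat) and treatment, with a bar at each group's median. H19 and Grb10 have higher medians in females and Cdkn1c in males in all 4 pairs of groups, and for these 3 genes the bars of the diets lie closer together than those of the sexes.

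Levels of every member depended on the cross. In untreated animals all 10 differed between the 20 crosses (edgeR quasi-likelihood F tests, adjusted over all genes), where 95.4% of all genes tested did so, so that being called for strain does not set the members apart. In the upper identifier range alone Peg3 and Plagl1 were not called. Rian had the strongest difference (F = 35.01, adjusted p = 2.7e-75), then Igf2 (F = 25.6) and Dlk1 (F = 22.3), and Plagl1 had the weakest (F = 3.21, adjusted p = 9.4e-06). Mean Dlk1 ran from 0.354 CPM ± 0.290 (SD, n = 24) in CC019/TauUncJ x CC075/UncJ to 1.33 CPM ± 0.462 (SD, n = 24) in CC002/UncJ x CC043/GeniUncJ. Mean Rian ran from 3.36 CPM ± 0.876 (SD, n = 24) in CC001/UncJ x CC042/GeniUncJ to 9.85 CPM ± 5.13 (SD, n = 24) in CC051/TauUncJ x CC060/UncJ. Mean Mest ran from 1.601 CPM ± 0.742 (SD, n = 24) in CC019/TauUncJ x CC075/UncJ to 6.33 CPM ± 6.98 (SD, n = 24) in CC051/TauUncJ x CC059/TauUncJ, or 5.04 CPM ± 3.12 (SD, n = 23) without the library that stood apart. Without it, CC009/UncJ x CC013/GeniUncJ was highest, at 5.32 CPM ± 1.87 (SD, n = 10). Neighbours in the order of crosses rarely differed beyond their error: of 19 neighbouring pairs per gene, at most 2 lay more than 2 standard errors apart.

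The other members spanned less. Cross means ran from 247 to 449.9 CPM for H19, from 13.6 to 29.6 for Igf2 (27.3 in that cross without the library that stood apart, below the 27.46 of CC024/GeniUncJ x CC002/UncJ), from 6.46 to 14.1 for Meg3, from 26.04 to 46.7 for Grb10, from 12.7 to 21.6 for Peg3, from 1.03 to 2.18 for Plagl1 and from 6.82 to 10.5 for Cdkn1c. The ends at 46.7 for Grb10, 2.18 for Plagl1 and 6.82 for Cdkn1c are those of CC009/UncJ x CC013/GeniUncJ, which lies in the upper identifier range alone. Adjusted for sex, diet and identifier range, CC024/GeniUncJ x CC002/UncJ was highest for Plagl1. For most members the same crosses were high and low in the metformin animals, which are other mice. Over the 20 crosses, Pearson's r between adjusted means of untreated and metformin animals was 0.84 to 0.96 for 8 members, with Rian at 0.96 (permutation p = 1e-05, adjusted over the 10 correlations 1.43e-05; Spearman's rho 0.944) and Dlk1 at 0.943 (rho 0.938, same p values). Leaving out the 2 crosses farthest from the median left these at 0.942 and 0.933. Peg3 (r = 0.465, permutation p = 0.0386) and Plagl1 (r = 0.553, permutation p = 0.0108) were the members whose cross levels repeated least, with rho of 0.49 and 0.594 and r of 0.526 and 0.594 without the 2 farthest crosses.

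The order of the names in a cross was examined next. Were the first-named line the dam, crosses that share it would share the maternal copy of a gene, and crosses that share the second-named line the paternal copy. Of the 20 crosses, 13 shared a first-named line with another cross (6 lines) and 13 shared a second-named line (5 lines). For each gene, the SD of cross means (log2 CPM, adjusted for sex, diet and identifier range) among crosses that share the first line was divided by the SD among crosses that share the second line. A log2 ratio above 0 means that crosses with the same second line were more alike. All 5 members expressed from the paternal copy had a ratio above 0 and all 5 expressed from the maternal copy had a ratio below 0. These are not 10 separate cases, since the cross means of Meg3 and Rian ran closely alike (r = 0.951). The ratios of H19, Grb10, Igf2 and Plagl1 changed sign when certain crosses were left out singly. Over all 16384 genes, the ratio was centred near 0 (median -0.01, with 50.9% below 0).

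Dlk1 had the largest ratio of the members, at 1.86, above 99.9% of genes (two-sided permutation p = 0.00058 over crosses, adjusted over all genes 0.498). Crosses with CC075/UncJ second had mean Dlk1 of 0.354 and 0.392 CPM, and those with CC002/UncJ second had 0.434, 0.444 and 0.470 CPM. The 4 crosses with CC042/GeniUncJ second had 0.781 to 1.29 CPM, and those with CC060/UncJ second had 0.945 and 1.29 CPM. With CC019/TauUncJ second they had 0.465 and 0.633 CPM. The first-named line did not order Dlk1 in this way: with CC002/UncJ first, the means were 0.392 and 1.33 CPM. The median difference between crosses was 0.20 (log2) over the 12 pairs sharing a second line, 0.98 over the 8 pairs sharing a first line and 0.69 over the 146 pairs sharing none. In a limma F test over all genes with the second-named line as factor, Dlk1 was called (adjusted p = 0.047, where 0.421% of all genes were called), and it was called without the library that stood apart (0.0466) and in males alone (0.0349). The call was lost in females alone (0.129), in the lower identifier range (0.083), in metformin animals (0.133) and on the variance-stabilised scale (0.064).

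Mest was the other member with a high ratio, at 1.36, above 99.5% of genes (permutation p = 0.00805, adjusted 0.753). Its median difference was 0.25 (log2) between crosses sharing a second line and 0.63 between those sharing a first line. In metformin animals the ratios were 1.42 for Dlk1 and 1.46 for Mest. Peg3 followed at 0.91 (permutation p = 0.0671, adjusted 0.838), and Igf2 (0.26) and Plagl1 (0.20) lay within the bulk of genes. The adjusted p missed 0.05 for every gene tested (0 of 16384), while 5.97% of genes had an unadjusted permutation p under 0.05. Of the members, only Dlk1 and Mest were among the latter.

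On the maternal side the ratios were smaller. They were -0.64 for Rian (permutation p = 0.143), -0.58 for Meg3 (0.178), -0.42 for Cdkn1c (0.303), -0.14 for H19 (0.775) and -0.11 for Grb10 (0.822), none of which is far in the tail of all genes. By single lines Rian had no common order. CC019/TauUncJ gave 3.61 and 4.17 CPM where it was first and 8.12 and 8.58 CPM where it was second. Over the 6 lines found in both positions, the mean with the line second minus that with it first was 0.99 (log2) for CC019/TauUncJ and 0.62 for CC011/UncJ, but -0.18 for CC002/UncJ, -0.20 for CC042/GeniUncJ, -0.46 for CC043/GeniUncJ and -0.48 for CC075/UncJ. None of the members was called for the first-named line, for which 1.57% of all genes were called. In metformin animals all 5 maternally expressed members again lay below 0 (-0.43 for Rian, -0.23 for Meg3, -0.22 for Grb10, -0.15 for Cdkn1c and -0.13 for H19), whereas Igf2 (-0.04) and Plagl1 (-0.22) of the paternally expressed members changed sign. In females alone H19, Igf2 and Meg3 changed sign, and in males alone Cdkn1c and Grb10 did. Dlk1, Mest, Peg3 and Rian kept theirs in each alternative run.

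**Figure D2:**
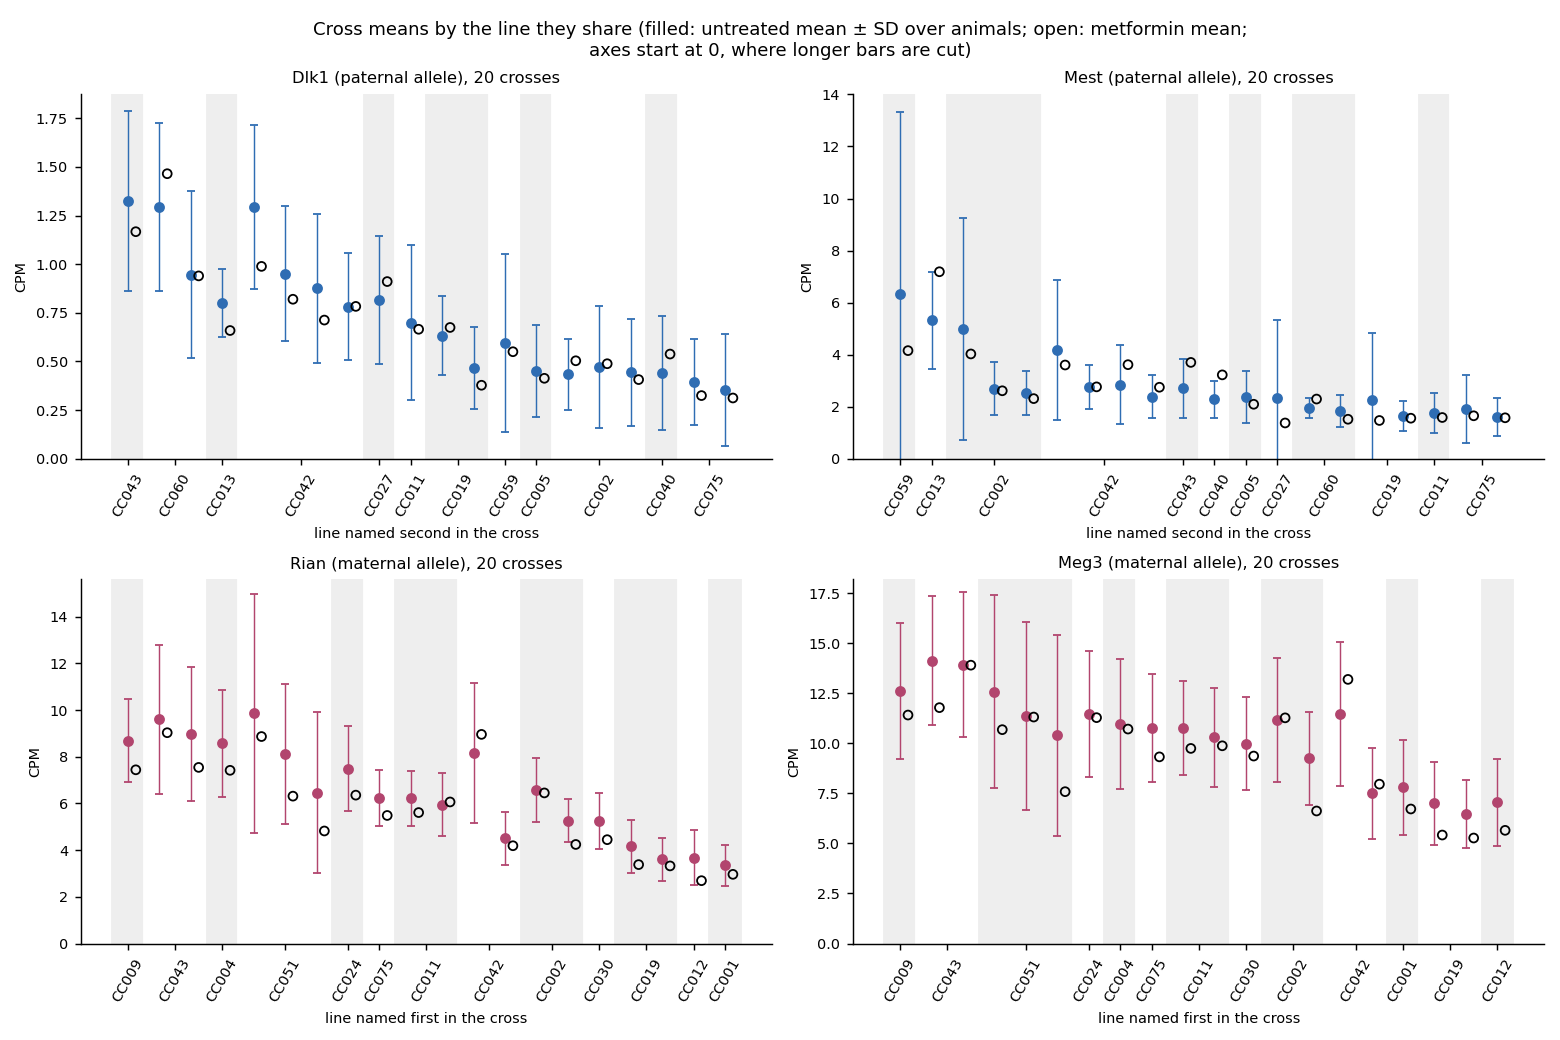
Mean CPM of each of the 20 crosses (filled, untreated mean ± SD over animals; open, metformin mean), grouped by the second-named line for Dlk1 and Mest and by the first-named line for Rian and Meg3, with shading to separate lines (named by the part before the slash). For Dlk1, the crosses with CC075 or CC002 second lie at 0.354 to 0.470 CPM and those with CC060 or CC042 second at 0.781 to 1.29 CPM.

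**Figure D3:**
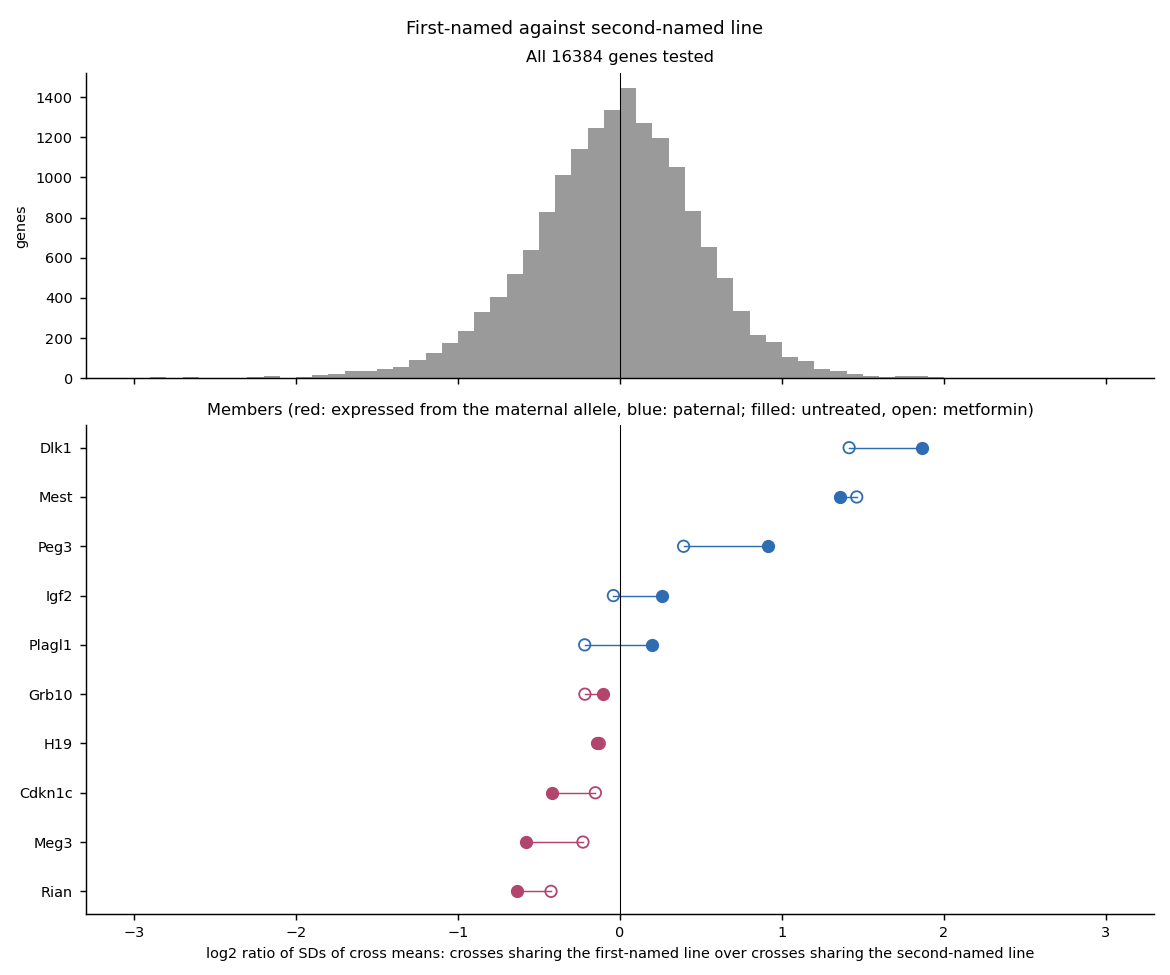
Log2 ratio of the SD of cross means among crosses sharing the first-named line to that among crosses sharing the second-named line, as a histogram over 16384 genes (above) and for each member (below; red maternally and blue paternally expressed, filled untreated and open metformin animals). Dlk1 and Mest lie at 1.86 and 1.36 in untreated animals, and the 5 maternally expressed members between -0.64 and -0.11.

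A wider list of imprinted genes was compared by the same ratio. For these genes and for the members, the parental copy was assigned beforehand. Expression by allele in this muscle was not measured. Of 50 genes listed, 47 were in the table, and 34 that are not members passed the filter in untreated animals. Among these, 10 of 13 maternally expressed genes lay below 0 and 13 of 21 paternally expressed genes lay above 0. The highest values were those of Zdbf2 (1.23), Usp29 (1.17) and Peg10 (0.96), all paternally expressed, and the lowest were those of Kcnq1 (-0.80) and Zim1 (-0.77), maternally expressed, and of Kcnq1ot1 (-0.65), the paternally expressed antisense RNA of Kcnq1. In metformin animals the counts were 6 of 13 and 12 of 21, so the wider maternal genes did not keep their side there.

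The genes whose cross means ran most alike with each member were sought among 12002 genes with a mean of at least 1 CPM. For Meg3 it was Rian and for Rian it was Meg3 (r = 0.951 over 20 crosses), genes that lie 0.0765 Mb apart. For 7 of the others it was Lpin2 for H19 (0.80), Osbpl2 for Cdkn1c (0.832), Gxylt2 for Dlk1 (0.836), Bcl7a for Peg3 (0.803), Ikzf5 for Grb10 (0.84), S100pbp for Plagl1 (0.755) and Strap for Mest (0.765). Farther than 5 Mb away, the closest were Krit1 for Meg3 (0.803) and Kcnh2 for Rian (0.826). These values are the highest of many and the crosses share lines, so they describe likeness only. Dlk1, in the same cluster as Meg3 and Rian, was below the level required (median 0.611 CPM in untreated animals). It was therefore not among the genes searched and could not be named for Meg3 or Rian. Both of these were among the genes searched for Dlk1, and neither ran as much alike with it as Gxylt2 (0.836).

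Females and males differed in most members, as in most genes. In untreated animals, 2 of 10 members were higher in males, 7 were lower and 1 was not called, where 67.1% of all genes were called, 30.1% higher and 37% lower. The median size of the difference was 0.27 (log2) over the members and 0.10 over all genes. Grb10, which binds the insulin and IGF1 receptors and restrains their signalling, had a lowest, median and highest value of 25.9, 41.6 and 59.9 CPM in females and 9.58, 26.8 and 68.4 CPM in males. The difference was -0.56 ± 0.021 (log2, SE), lower in males in 20 of 20 crosses (adjusted p = 6.9e-91). Igf2 was lower in males by less (-0.18, adjusted p = 2.6e-10, lower in 16 of 20 crosses).

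Cdkn1c, an inhibitor of cyclin-dependent kinases that holds cells out of the cycle, went the other way, at 3.11, 6.38 and 12.5 CPM in females and 4.11, 10.5 and 21.96 CPM in males. The difference was 0.77 ± 0.030 (log2, SE), higher in males in 20 of 20 crosses (adjusted p = 1.1e-87). H19, the non-coding RNA next to Igf2, had 198, 487 and 911 CPM in females and 79.5, 242 and 904 CPM in males. It was lower in males in 20 of 20 crosses, by -0.91 ± 0.034 (SE) on the log2 scale (adjusted p = 6.4e-93). The ranges of the sexes overlapped for all 3 genes, while the interquartile ranges did not: H19, for example, had quartiles of 410.2 to 566 CPM in females and 188 to 306 CPM in males.

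Smaller differences were seen in the remaining members. Plagl1 (-0.29, adjusted p = 4.1e-07), Peg3 (-0.26, adjusted p = 3.2e-09), Rian (-0.22, adjusted p = 9.6e-09) and Meg3 (-0.10, adjusted p = 0.0115) were lower in males. Mest was higher in males (0.38, adjusted p = 6.2e-09, 14 of 20 crosses), though by 0.06 in the upper identifier range alone (adjusted p = 0.818), where Meg3 (-0.19, adjusted p = 0.151) and Peg3 (-0.24, adjusted p = 0.124) were not called either, at differences as large as or near those of all untreated animals. Dlk1 was not called (-0.12, adjusted p = 0.0553), and it was called without the library that stood apart, a male (-0.15, adjusted p = 0.0167), by DESeq2 (-0.25, adjusted p = 0.00013) and by edgeR with the size factors of DESeq2 (-0.13, adjusted p = 0.0449). Markers of other cells also differed between the sexes: 6 of 7 adipocyte markers were lower in males (summed group medians in untreated animals of 219 and 232 CPM in females and 160.1 and 174 CPM in males), as were 3 of 4 markers of regenerating fibres. The other adipocyte marker was higher in males. For endothelial and for satellite cells, 3 of 5 markers were higher in males and 1 was lower. Of 6 markers of fibro-adipogenic progenitors, 1 was higher and 3 were lower, and of 6 of muscle fibres, 2 and 3. With the marker sums as covariates, H19 (-0.79), Grb10 (-0.53) and Cdkn1c (0.83) were still called, and Igf2 (-0.06, adjusted p = 0.0615) and Plagl1 (-0.09, adjusted p = 0.171) were not.

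On 44% fat, 4 members changed in untreated animals. Mest, a hydrolase-like protein of the endoplasmic reticulum that is known to rise in expanding fat tissue, rose, and Igf2, Cdkn1c and Dlk1 fell, which made 1 higher, 3 lower and 6 not called of 10. Of all genes, 20.3% were called, 10.1% higher and 10.1% lower. The lowest, median and highest value of Mest was 0.509, 1.95 and 35.8 CPM on 10% fat and 0.654, 2.32 and 15.98 CPM on 44% fat. The ranges overlapped almost wholly, and the groups differed in their upper parts: the upper quartile was 2.56 CPM on 10% fat and 3.85 CPM on 44% fat. On the log2 scale Mest rose by 0.41 ± 0.062 (SE), at an adjusted p of 6.5e-09, and it was higher in 15 of 20 crosses. Without the library that stood apart, which is on the low-fat side, the change was 0.47 (adjusted p = 1.8e-12).

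The falls were modest. Igf2 had medians of 18.9 CPM on 10% fat and 17.6 CPM on 44% fat, a log2 fold change of -0.13 ± 0.026 (SE, adjusted p = 3.8e-05), and was lower in 18 of 20 crosses. Cdkn1c had medians of 8.20 and 7.54 CPM and fell by 0.13 on the log2 scale (adjusted p = 0.00032), lower in 14 of 20 crosses. Dlk1 had medians of 0.628 and 0.586 CPM and a change of -0.16 (adjusted p = 0.03), lower in 13 of 20 crosses, but without the library that stood apart it was no longer called (-0.14, adjusted p = 0.0577). Of the non-coding RNAs, Meg3 (-0.09, adjusted p = 0.0635), Rian (-0.07) and H19 (0.06) were not called. Meg3 was lower in 16 of 20 crosses, and was called by limma voom (adjusted p = 0.0151), in the lower identifier range (0.0433) and without mismatched libraries (0.0441). Grb10 (-0.04), Peg3 (0.06) and Plagl1 (0.07) were not called either.

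Diet was also tested in the metformin animals, which the first test did not use. Mest (0.60 ± 0.091 SE, adjusted p = 3e-08), Igf2 (-0.11, adjusted p = 0.0117) and Cdkn1c (-0.12, adjusted p = 0.0298) were called again in the same directions, against 12.1% of all genes. Dlk1 had a like value (-0.16) and was not called (adjusted p = 0.219). Within the lower and upper identifier ranges of these animals Mest was called (0.52 and 0.74), and neither Igf2 (-0.05 and -0.19, adjusted p = 0.537 and 0.0607) nor Cdkn1c (-0.09 and -0.16, adjusted p = 0.394 and 0.151) was. An interaction of diet and sex was called in 0 members by edgeR and by limma voom (edgeR adjusted p at least 0.394, where 0.568% of all genes were called), and Cdkn1c alone had an unadjusted p under 0.05 (0.0206). An interaction of diet and metformin was called in 0 members as well (edgeR adjusted p at least 0.588, where 0.0902% of all genes were called), with 0 members at an unadjusted p under 0.05. With diet, 5 of 7 adipocyte markers and 4 of 5 endothelial markers rose, and 2 adipocyte markers, 2 of 6 markers of fibro-adipogenic progenitors and 1 of 5 satellite cell markers fell. With marker sums as covariates, Mest and Igf2 were still called (adjusted p = 2e-14 and 8.7e-05), Cdkn1c (-0.08, adjusted p = 0.054) and Dlk1 (-0.14, adjusted p = 0.0737) were not, and H19 was (0.11, adjusted p = 0.00505). Within the lower identifier range the changes were 0.36 for Mest, -0.12 for Igf2, -0.13 for Cdkn1c and -0.19 for Dlk1, all called. Within the upper range, with 69 untreated animals, they were 0.46, -0.15, -0.17 and 0.07, and 0 members were called by edgeR, where 2.2% of all genes were.

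Of the other 34 imprinted genes, 4 rose and 5 fell on 44% fat, with 25 not called. The falls were in Usp29 (-0.29, adjusted p = 0.00058), a neighbour of Peg3, and in Zdbf2 (-0.28), Calcr (-0.19), Slc38a4 (-0.14) and Ndn (-0.10). The rises were in Nnat (1.18 ± 0.087 SE, adjusted p = 3.8e-32), Nap1l5 (0.21), Kcnq1 (0.18) and Snrpn (0.05). The change of Nnat differed between the sexes (smaller in males by 1.15 on the log2 scale, adjusted p = 1.6e-07) and between crosses (adjusted p = 0.00045). Nnat encodes neuronatin, a small membrane proteolipid, and went from 3.85 CPM ± 4.48 (SD, n = 234) to 7.81 CPM ± 5.16 (SD, n = 235). Only Nnat changed by more than Mest among the imprinted genes called. The median size of the change was 0.08 (log2) over the members, 0.06 over the wider list and 0.04 over all genes.

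The diet difference of Mest depended on the cross. It was the single member called for an interaction of diet and strain in untreated animals (F = 3.94, adjusted p = 9.3e-06, where 4.13% of all genes were called). The cross with the largest difference was CC030/GeniUncJ x CC002/UncJ, at 1.41 on the log2 scale. Its males on 44% fat had 6.08 to 14.4 CPM and its males on 10% fat 2.31 to 3.64 CPM, so the diets did not overlap. Its females had 2.29 to 5.30 CPM on 44% fat and 1.51 to 2.51 CPM on 10% fat. CC019/TauUncJ x CC042/GeniUncJ followed at 1.23, with females at 5.63 to 12.6 CPM on 44% fat and 2.46 to 4.32 CPM on 10% fat. CC051/TauUncJ x CC059/TauUncJ had 0.89, or 1.20 without its library at 35.8 CPM on 10% fat.

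At the other end, CC051/TauUncJ x CC019/TauUncJ had a difference of -0.44, with 0.975 to 4.59 CPM on 44% fat and 0.990 to 13.7 CPM on 10% fat, the latter with a single male far above its group's median of 2.17 CPM. CC042/GeniUncJ x CC060/UncJ had -0.05, with narrow ranges of 1.27 to 2.22 and 1.05 to 2.85 CPM. The interaction was called by limma voom (adjusted p = 0.00775), with marker sums as covariates (2.1e-05) and without the library that stood apart (1.7e-09). It was also called in the metformin animals (F = 6.03, adjusted p = 1e-08), where Igf2 was called too (adjusted p = 0.0221). In those animals 9.2% of all genes were called for this interaction.

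In metformin animals the largest Mest difference was in CC009/UncJ x CC013/GeniUncJ, at 2.48 on the log2 scale. All 6 animals on 44% fat, at 6.63 to 23.8 CPM, lay above all 6 on 10% fat, at 1.27 to 2.71 CPM. In untreated animals the same cross had 0.62, with 4.98 to 9.52 CPM in 6 animals on 44% fat and 3.19 to 4.68 CPM in 4 on 10% fat, again without overlap. CC051/TauUncJ x CC059/TauUncJ was next among metformin animals (1.32, with 4.80 to 6.82 CPM and 1.77 to 3.46 CPM), then CC001/UncJ x CC042/GeniUncJ (1.25, with 3.27 to 8.33 CPM and 1.56 to 2.63 CPM), both without overlap. Over the 20 crosses, the differences in untreated and metformin animals correlated weakly (r = 0.372, permutation p = 0.106; rho = 0.388, permutation p = 0.0915), with r = 0.313 without the 2 crosses farthest from the median, and had the same sign in 12 of 20. The order of the crosses as a whole was therefore not shown to repeat.

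**Figure D4:**
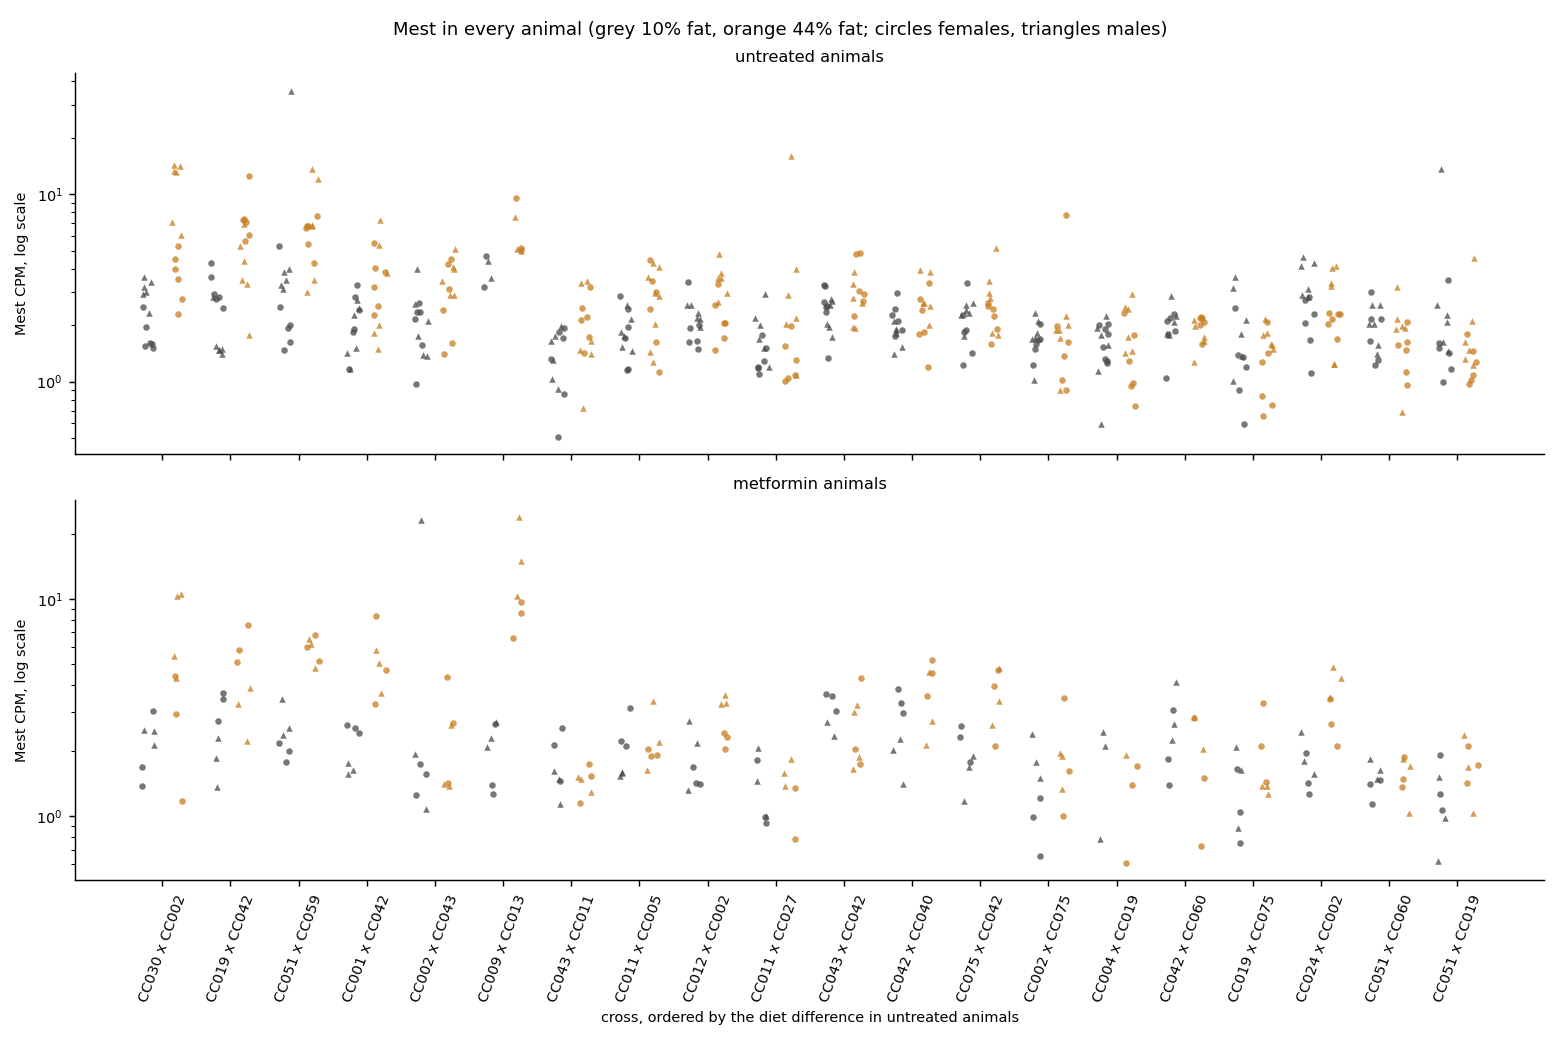
Mest CPM (log scale) in every animal of the 20 crosses (lines named by the part before the slash), untreated above and metformin below, on 10% fat (grey) and 44% fat (orange), with circles for females and triangles for males. Crosses are in order of the diet difference in untreated animals, from CC030 x CC002 (1.41, log2) to CC051 x CC019 (-0.44).

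With metformin, 2 of 10 members were lower and 8 were not called, where 19.4% of all genes were called, 8.34% higher and 11% lower. Rian, a non-coding RNA that hosts small nucleolar RNAs, had medians of 5.91 CPM in untreated and 5.39 CPM in 234 metformin animals, and the difference was -0.15 on the log2 scale ± 0.031 (SE, adjusted p = 0.00012), lower in 18 of 20 crosses. Igf2 had medians of 18.3 and 17.2 CPM and a change of -0.08 ± 0.024 (SE, adjusted p = 0.00701), lower in 14 of 20 crosses. The other 8 members had changes of -0.10 to 0.00, with adjusted p of at least 0.104. Treatment and identifier range were unevenly mixed: metformin animals gave 144 of the 544 libraries in the lower range and 90 of the 159 in the upper. Neither call held in the upper identifier range alone, where Rian (0.03) and Igf2 (0.03) had the other sign. There 0 members were called, and 1 of all 17683 genes tested, so losing a call there does not set the members apart. In the lower range alone the changes were -0.21 for Rian and -0.13 for Igf2, and 5 members were called, where 21.8% of all genes were. With the marker sums as covariates 0 members and 6.74% of all genes were called by edgeR, with Igf2 at -0.06 (adjusted p = 0.0621) and Rian at -0.05 (adjusted p = 0.361). Without the libraries highest in adipocyte markers Mest was also called, at -0.17 (adjusted p = 0.0241) against -0.10 in all animals. With metformin, 3 of 7 adipocyte markers and 2 of 6 markers of fibro-adipogenic progenitors were lower. The medians of the latter's sum over groups were 419.6 to 439 CPM with metformin and 434 to 488 CPM without. Of 5 endothelial markers, 2 were lower and 1 was higher, and of 6 of muscle fibres, 1 was lower and 1 higher. For Schwann cells and for satellite cells, 1 of 5 markers was lower.

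Of 36 other imprinted genes tested for metformin, 3 were higher and 5 were lower. The lower ones were Zdbf2 (-0.34, adjusted p = 3.3e-06), Slc22a18 (-0.26), Nnat (-0.24), Ndn (-0.10) and Sgce (-0.05), and the higher ones were Kcnq1ot1 (0.12), Asb4 (0.09) and Igf2r (0.04), which encodes the receptor that clears IGF2. Zdbf2 and Ndn were thus lower both on 44% fat and with metformin, in comparisons that share the untreated animals.

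Finally, the members were compared between animals after strain, sex, diet and identifier range were removed, over all untreated animals (400 in the lower and 69 in the upper range). The 3 closest pairs were Meg3 and Rian (r = 0.67, rho = 0.668), Meg3 and Peg3 (r = 0.645, rho = 0.598) and Peg3 and Plagl1 (r = 0.626, rho = 0.562). Each had a permutation p of 1e-05, the smallest that the permutations can give, and an adjusted p of 1.9e-05 for r over the 135 relations computed. In the lower and upper identifier ranges, r was 0.676 and 0.639 for the first pair, 0.656 and 0.586 for the second and 0.612 and 0.70 for the third. Without the library that stood apart they were 0.656, 0.633 and 0.615, and without the 2 animals farthest from the median 0.651, 0.627 and 0.607. Meg3 and Rian share a cluster, while Peg3, Plagl1 and Meg3 lie on 3 chromosomes.

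H19 and Igf2, neighbours with shared enhancers but opposite parental copies, had r = 0.37 (rho = 0.305, adjusted p of r = 1.9e-05; 0.325 and 0.608 within the lower and upper ranges). Dlk1 and Meg3, also neighbours with opposite copies, had r = 0.0948 (permutation p = 0.041, adjusted 0.0532; rho = 0.116, adjusted p = 0.0181), and Dlk1 has few counts per library. Several members moved with markers of cells other than mature fibres. Meg3 and Rian moved with the summed markers of fibro-adipogenic progenitors (r = 0.535 and 0.534), Peg3 with those of endothelial cells (r = 0.497) and Igf2 with those of regenerating fibres (r = 0.479, or 0.435 without the library that stood apart), each with rho between 0.377 and 0.579 and an adjusted p of r of 1.9e-05. These links were not particular to a gene or a cell type. Grb10 (r = 0.491), Peg3 (0.468) and Plagl1 (0.447) also moved with the progenitor markers. Igf2 moved with those of progenitors (0.363) and endothelial cells (0.358) too. Cdkn1c had its highest r with the markers of muscle fibres (0.301). After all marker sums were removed as well, r was 0.547 for Meg3 and Rian, 0.532 for Meg3 and Peg3, 0.473 for Peg3 and Plagl1 and 0.233 for H19 and Igf2.

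**Figure D5:**
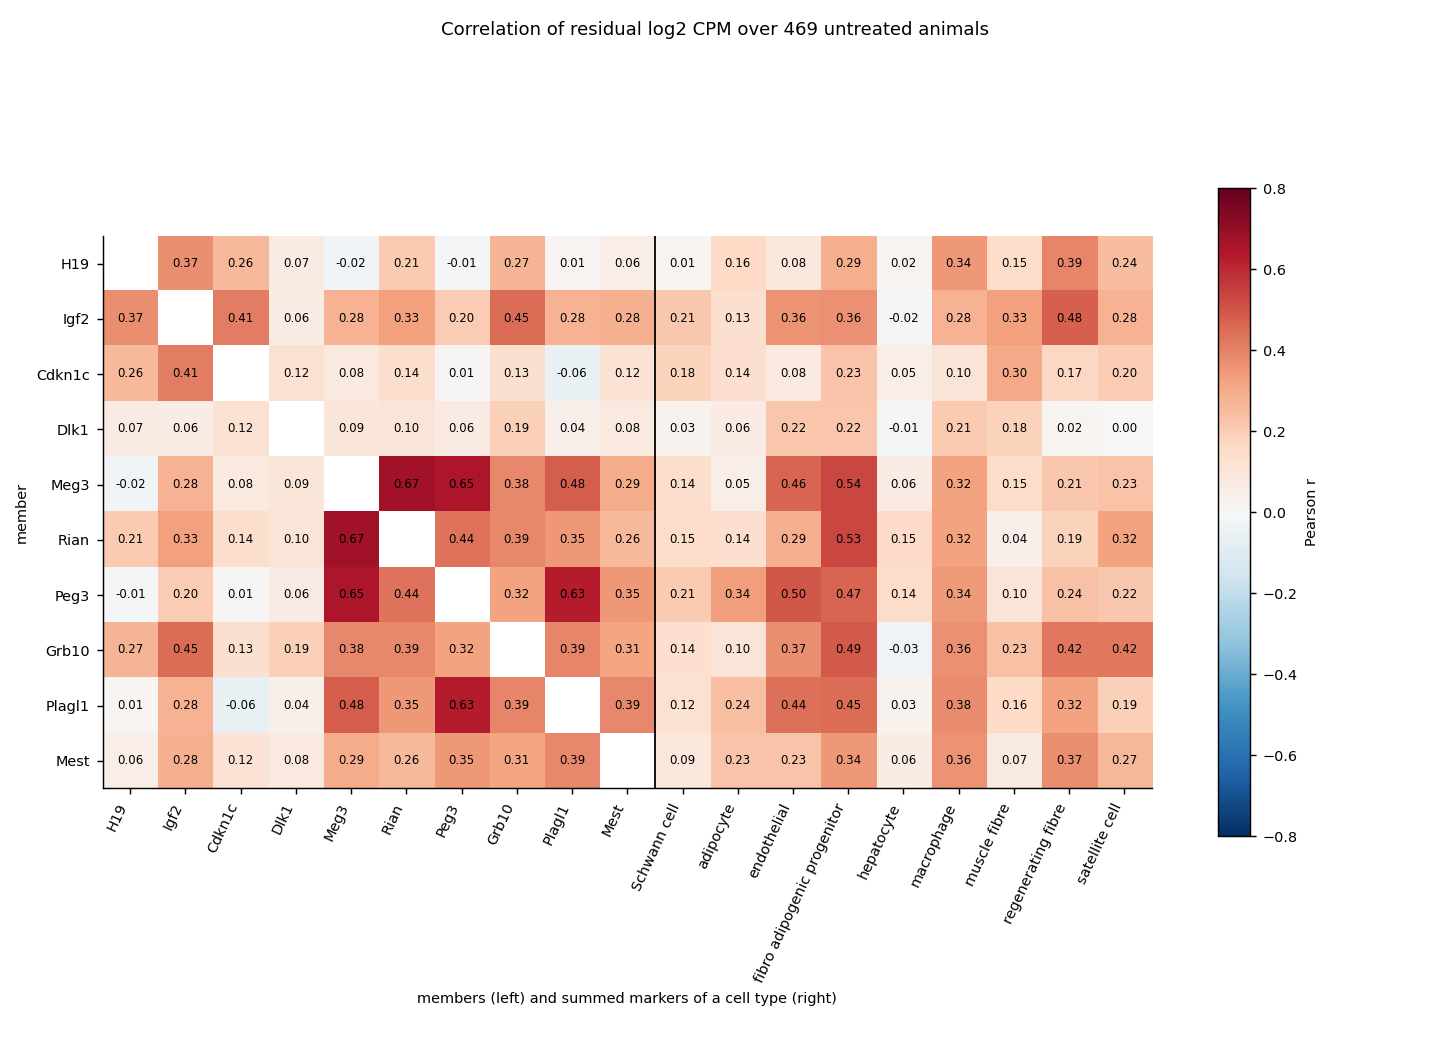
Pearson's r of residual log2 CPM over all untreated animals, between members (left of the line) and between members and the summed markers of 9 cell types (right of the line), with red for positive and blue for negative values. The highest values between members are those of Meg3 with Rian (0.67), Meg3 with Peg3 (0.645) and Peg3 with Plagl1 (0.626), and the row of Dlk1 stays at or below 0.224.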

How the data were processed

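RNA of 703 gastrocnemius muscles was measured by sequencing of polyadenylated RNA. The authors aligned both mates as single-end reads to a transcriptome of the founder strains, assigned them with EMASE in GBRS, and deposited estimated counts per gene, which were whole numbers throughout, after removing transcripts seldom read. They also deposited variance-stabilised values, a score used here as an alternative scale. The submitters' processing notes name GRCm38 and DESeq2. Versions of EMASE and GBRS are not given in the sources used here.

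Samples were grouped by the sex, diet, treatment and strain in the labels. P-values of tests on counts and of correlations between animals measure the spread between animals. Those of tests on cross means, or on diet differences per cross, measure the spread between the 20 crosses, which share lines. Counts were tested with edgeR 4.0.16 (TMM, filterByExpr, quasi-likelihood F tests) in R 4.3.3, with strain, sex, diet and identifier range as terms and Benjamini-Hochberg adjustment over all genes tested (16384 in untreated, 16418 in metformin, 17740 in all animals). A gene was called at an adjusted p under 0.05. Cross means of log2 CPM (prior count 2) were tested with limma 3.58.1 and, for the ratio of first against second line, by 100000 permutations over crosses. These p-values were adjusted over all genes and not, as first planned, over the members. Alternatives were limma voom, DESeq2 1.42.0, other normalisation and filters, each identifier range, marker sums as covariates, and leaving out mismatched libraries, libraries high in adipocyte markers, or the library that stood apart. The marker covariates and the omission of that library were chosen after seeing the data. Correlations used scipy 1.17.1. Scripts were tested on simulated counts. The rule for names took all members, up to 5 wider-list genes per direction for diet and metformin, 3 at each end of the ratio, and the most alike genes (that of Igf2 is not reported here). The members, lists and tests were chosen with earlier results of these data known. Depth was 27.4 M to 96.1 M counts per library, and members with few counts, above all Dlk1, are measured least precisely.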

Additional observations from a re-analysis of the deposited data

Results flagged for a closer look

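The diet difference of Mest differed between the 20 crosses in untreated animals (edgeR interaction test, adjusted p = 9.3e-06) and in metformin animals (adjusted p = 1e-08). In untreated animals it ran from 1.41 on the log2 scale in CC030/GeniUncJ x CC002/UncJ to -0.44 in CC051/TauUncJ x CC019/TauUncJ, and it was above 0 in 15 of 20 crosses. The diet difference of Igf2 differed between crosses in metformin animals (adjusted p = 0.0221) and was not called in untreated animals (adjusted p = 0.759). Of all genes, 9.2% were called for this interaction in metformin animals and 4.13% in untreated animals. Whether the interaction of Igf2 differs between untreated and metformin animals was not tested.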

How the results depend on the processing

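No paired analysis was possible because the labels give no replicate numbers that link animals across groups. Of the members' alternatives, 87 of 100 for diet, 92 of 100 for sex, 88 of 90 for strain, 81 of 100 for metformin, 13 of 20 for diet in metformin animals and 52 of 60 for the ratio of first against second line kept their direction and side of the threshold. The upper identifier range alone gave 0 members called for diet (4 in all untreated animals) and 0 for metformin (2 in all animals), with fewer animals, and the lower range gave 5 for metformin. Of all genes, 21.8% were called for metformin in the lower range. Marker sums as covariates gave 0 for metformin. Diet in metformin animals gave 1 member in either range (3 in both together), diet by strain gave 2 in metformin animals (1 in untreated), and the second-named line gave 0 in females, in the lower range, in metformin animals and on the variance-stabilised scale (1 in the main test). Strain was not called in the upper range for Peg3 and Plagl1.

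Signs turned as follows, also for the called falls of Dlk1 with diet and of Rian and Igf2 with metformin. For diet in the upper range they did for Dlk1 (0.0713), Rian (0.0315) and Grb10 (0.0164), and in metformin animals for Meg3 (0.0483) and Grb10 (0.0337) in the lower and Rian (-0.0779) in the upper range. For metformin they did in the upper range for H19 (0.0902), Igf2 (0.0325), Cdkn1c (0.0393), Rian (0.0321) and Peg3 (0.0204), and with marker sums for Cdkn1c (0.00702), Meg3 (0.00337), Peg3 (0.0242) and Plagl1 (0.0328). Grb10 turned in the lower range (-0.0188), without a filter (-0.00102), without mismatched libraries (-0.00907) and without those high in adipocyte markers (-0.00191). The ratio of first against second line turned in metformin animals for Igf2 (-0.0405) and Plagl1 (-0.218), in females for H19 (0.0347), Igf2 (-0.0565) and Meg3 (0.0306), in males for Cdkn1c (0.226) and Grb10 (0.0284), and in the lower range for Plagl1 (-0.189). Leaving out each cross in turn gave -0.41 to 0.0195 for H19, -0.435 to 0.376 for Grb10, -0.226 to 0.517 for Igf2, -0.122 to 0.436 for Plagl1, 1.62 to 2.26 for Dlk1, 0.94 to 1.79 for Mest, 0.64 to 1.24 for Peg3, -1.26 to -0.28 for Rian, -0.83 to -0.17 for Cdkn1c and -1.37 to -0.15 for Meg3. Both ends were set by the same crosses for Rian and Meg3: without CC042/GeniUncJ x CC060/UncJ the ratio was lowest, and without CC043/GeniUncJ x CC042/GeniUncJ it was nearest to 0. The cause of these changes was not tested.

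Over all genes, counts of calls moved by more than 1.5 times in the upper range for diet (365 against 3320), sex (4329 against 10998), strain (9149 against 15626) and metformin (1 against 3437, or 1196 with marker sums). For diet by strain they were 398 with marker sums and 1511 in metformin animals against 677, and 0.641% with limma voom against 4.13% of genes, for diet by sex 52 with limma voom against 93, and for metformin by diet 0 with limma voom against 16. For diet in metformin animals they were 615 in the lower and 836 in the upper range against 1979. For the first-named line the share of genes called was 0.677% in females and 0.867% in metformin animals against 1.57%, and for the second-named line 0.238% in females and 0.641% on the variance-stabilised scale against 0.421%, with 40 genes in males against 69.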
